A study of Bos taurus with 28 samples.

Results

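The genes of the unfolded protein response and of chaperones of the endoplasmic reticulum (ER) were followed across mammary biopsies of dairy cows. Of the 10 genes named for this group (HSPA5, HSP90B1, XBP1, ATF4, ATF6, DDIT3, CALR, PDIA3, PDIA4 and DNAJB9), 8 had at least 1 probe set whose annotation gave exactly that symbol. These 8 genes were read by 12 probe sets of the 24016 analysed. XBP1 and ATF6 had no such probe set and are not analysed here. HSPA5 and PDIA4 had 3 probe sets each, lettered A to C, and the other 6 genes had 1 each. The letters put the brighter level class, explained below, first and do not rank probe sets within a class.

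Each of 28 lactating Holstein-Friesian cows gave 1 surgical mammary biopsy, and the RNA of each was hybridised to 1 single-colour Affymetrix bovine array. The cows were grouped by their genotype at DGAT1, which encodes an enzyme of triglyceride synthesis with either lysine (K) or alanine (A) at the polymorphic residue. There were 4 KK cows, 13 KA cows and 11 AA cows, all in mid-lactation and on the control diet according to the labels. Arrays are named here by genotype and a number given in accession order, so that AA 2 and AA 9 are those whose titles end in 33 and 43.

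Secretory cells make, fold and ship large amounts of protein through the ER, and the unfolded protein response matches the capacity of the ER to that load. Its sensors are PERK, which through translation control raises the transcription factor ATF4 and then DDIT3 (CHOP), IRE1, which splices the mRNA of XBP1, and ATF6, which is released by cleavage in the Golgi. Among the targets are HSPA5 (BiP), the ER Hsp70 that also holds the sensors inactive, HSP90B1 (GRP94), the ER Hsp90, the disulfide isomerases PDIA3 and PDIA4, the lectin chaperone calreticulin (CALR), and DNAJB9 (ERdj4), a J-domain partner of HSPA5.

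The deposited values are log2 signals from which a baseline per probe set had been subtracted, so 0 is that baseline and only differences between cows can be read. No probe set can therefore be ranked against another by level. The rounding steps of the values still allowed a coarse level class. Of the 12 probe sets 7 were bright, meaning a log2 signal of at least 8 on all 28 arrays, and 3 were intermediate, meaning at least 4. The other 2 were dim, meaning only that a signal of at least 4 on all 28 arrays could not be read. Low signal on a single array, or steps that fitted no size, is enough for that class. Over all 24016 probe sets 1375 were bright, 11957 intermediate and 10684 dim. HSP90B1, CALR, PDIA3, DNAJB9, ATF4 and a pair of HSPA5 probe sets were bright, DDIT3 and a pair of PDIA4 probe sets were intermediate, and HSPA5 C and PDIA4 C were dim. In such whole-tissue biopsies, fewer cells of a type and less RNA per cell cannot be told apart.

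Several facts of the series touch these genes. The standard deviation over all probe sets was 0.86 on AA 2 and 0.78 on AA 9, against 0.21 to 0.35 on the other 26 arrays. The difference between the 3′ and 5′ GAPDH control probe sets, which grows as RNA is shortened, was 1.33 on AA 2 and 0.97 on AA 11, against -0.66 to 0.25 on the others, while the actin difference stayed between -0.28 and 0.46 on all arrays. Array numbers 29 to 42 held 4 KK, 2 KA and 8 AA arrays, and numbers 43 to 56 held 0 KK, 11 KA and 3 AA arrays. The milk protein genes marked the tissue as lactating gland, with 8 of 11 bright, 1 intermediate and 2 dim. DGAT1 itself averaged 0.55 ± 0.34 in KK (SD, n = 4), 0.34 ± 0.23 in KA (n = 13) and -0.02 ± 0.34 in AA (n = 11).

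HSPA5, the master chaperone of the ER, gave the lowest p-value of the group between genotypes. On HSPA5 A the 4 KK arrays read 0.29, 0.05, -0.24 and 0.05. The 13 KA arrays ran from -0.27 over a median of 0.17 to 0.75, and the 11 AA arrays from -0.76 over a median of -0.23 to 0.40. All 3 genotypes overlapped, although 12 of 13 KA arrays and 4 of 4 KK arrays lay above the AA mean, and the 3 lowest arrays, AA 2, AA 11 and AA 9, were all AA. KA averaged 0.20 ± 0.30 and AA averaged -0.24 ± 0.39, a difference of 0.45 (SE 0.13, 95% interval 0.18 to 0.71). In the limma fit across all probe sets this had an unadjusted p of 0.00195, rank 343 of 24016, and an adjusted p of 0.136, which missed the threshold of 0.05. Leaving out AA 2 and AA 9 gave 0.34 (adjusted p = 0.376). Within array numbers 29 to 42 the KA minus AA difference was 0.52, or 0.43 without AA 2. The 2 KA arrays there read 0.75 (KA 1) and 0.01 (KA 2). Within 43 to 56 the difference was 0.69, or 0.62 without AA 9. That last value rests on AA 10 at -0.20 and AA 11 at -0.71 as the only AA arrays. KK minus AA was 0.28 (SE 0.19, adjusted p = 0.909). All 4 KK arrays have numbers 29 to 42. Against the AA arrays of those numbers KK minus AA was 0.18, or 0.09 without AA 2.

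The difference was not seen on the other probe sets of HSPA5. The bright HSPA5 B read 0.15, 0.15, -0.01 and 0.01 on the KK arrays, ran from -0.33 over 0.02 to 0.39 in KA and from -0.43 over -0.10 to 0.42 in AA. Here the KK arrays lay inside the ranges of both other genotypes, and KA minus AA was 0.05 (SE 0.11, adjusted p = 0.794). The dim HSPA5 C varied least of the 12 probe sets, with KA minus AA at 0.07 and KK minus AA at 0.04. The mean of the 3 HSPA5 probe sets differed by 0.19 between KA and AA (SE 0.08, adjusted p = 0.215).

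**Figure D1:**
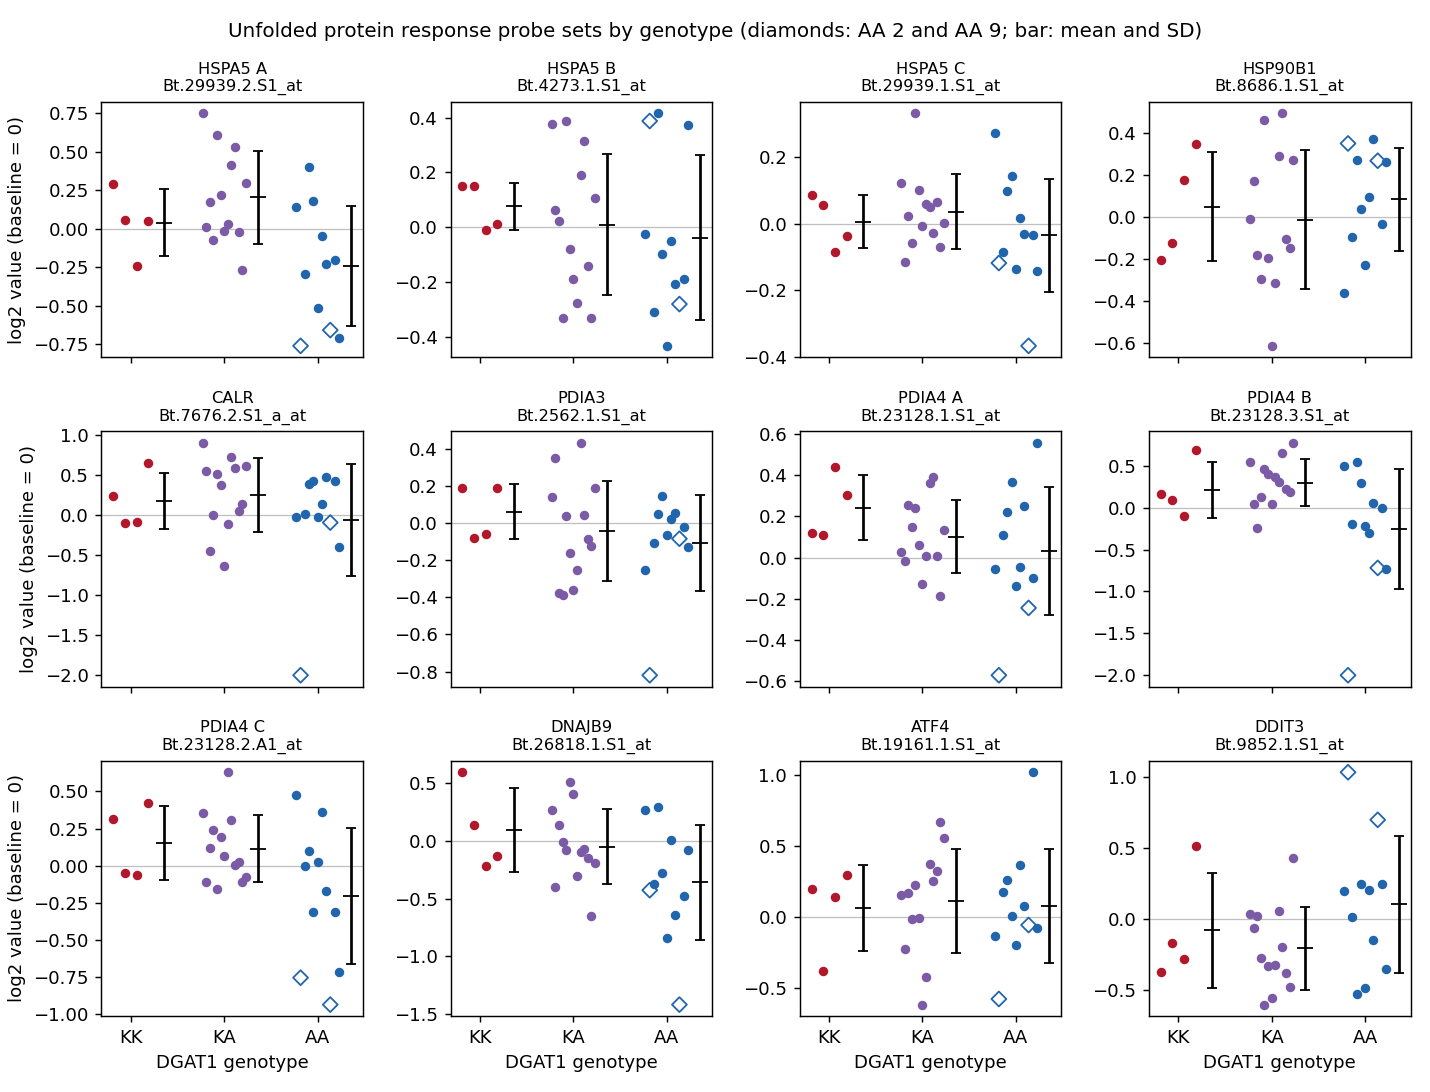
Log2 value relative to the subtracted baseline (y axis) by DGAT1 genotype (x axis) for the 12 probe sets, each headed by its gene, letter and platform identifier, with 1 point per array, open diamonds for AA 2 and AA 9, and black bars for the mean and SD. The genotypes overlap in every panel, CALR and PDIA4 B each have AA 2 at -2.0, and DDIT3 has AA 2 and AA 9 on top.

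PDIA4, a disulfide isomerase with an additional thioredoxin-like domain, showed the largest KA minus AA difference of the group. PDIA4 B read 0.17, 0.10, -0.10 and 0.69 on the KK arrays, from -0.25 over 0.31 to 0.78 on the KA arrays, and from -2.0 over -0.20 to 0.55 on the AA arrays. Every KA array and every KK array lay above the AA mean of -0.25, but that mean rested in part on AA 2 at -2.0 and AA 9 at -0.72, and the other 9 AA arrays averaged -0.01. KA minus AA was 0.55 (SE 0.20, unadjusted p = 0.00912, adjusted p = 0.154 in limma) and was 0.31 without AA 2 and AA 9 (adjusted p = 0.477). Within array numbers 29 to 42 it was 0.46, or 0.20 without AA 2, with 2 KA arrays there, KA 1 at 0.55 and KA 2 at 0.04. Within 43 to 56 it was 0.79, or 0.67 without AA 9. That last value rests on AA 10 at -0.01 and AA 11 at -0.74 as the only AA arrays.

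The dim PDIA4 C read 0.31, -0.05, -0.06 and 0.42 in KK, from -0.15 over 0.06 to 0.63 in KA and from -0.93 over -0.17 to 0.48 in AA. Its lowest arrays were AA 9, AA 2 and AA 11, and KA minus AA was 0.32 (SE 0.13, adjusted p = 0.191). The remaining intermediate probe set, PDIA4 A, read 0.12, 0.11, 0.44 and 0.30 in KK, from -0.19 over 0.06 to 0.39 in KA and from -0.57 over -0.05 to 0.56 in AA. The genotypes overlapped and KA minus AA was 0.07 (SE 0.10, adjusted p = 0.671).

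DNAJB9 carried the largest KK minus AA difference after PDIA4 B. The KK arrays read 0.59, 0.14, -0.22 and -0.13, the KA arrays ran from -0.65 over -0.08 to 0.50, and the AA arrays from -1.42 over -0.37 to 0.29. KK 1 was the highest of all 28 arrays and AA 9 the lowest, and all 4 KK arrays lay above the AA mean. KK minus AA was 0.45 (SE 0.23, 95% interval -0.01 to 0.92, unadjusted p = 0.0543, adjusted p = 0.909), and 0.33 without AA 2 and AA 9. Without KK 1 alone it was 0.29. KA minus AA was 0.31 (SE 0.16, adjusted p = 0.246), and 0.20 without AA 9.

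The lectin chaperone CALR spread widely within each genotype. The KK arrays read 0.23, -0.10, -0.09 and 0.64, the KA arrays ran from -0.64 over 0.37 to 0.90, and the AA arrays from -2.0 over 0.01 to 0.47. A single array, AA 2, set the low end, and the 9 AA arrays other than AA 2 and AA 9 averaged 0.15, where all 11 averaged -0.06. KA minus AA was 0.31 (SE 0.22, adjusted p = 0.372) over the 28 arrays, while the 26 arrays other than AA 2 and AA 9 gave 0.09. PDIA3, the isomerase that works with calreticulin on glycoproteins, read 0.19, -0.08, -0.06 and 0.19 in KK, from -0.39 over -0.09 to 0.43 in KA and from -0.82 over -0.06 to 0.15 in AA. KK minus AA was 0.17 (SE 0.15) and KA minus AA 0.07 (SE 0.10), with adjusted p-values of 0.909 and 0.698. Without AA 2 and AA 9 these differences were 0.09 and -0.01.

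HSP90B1 and ATF4 showed the smallest KK minus AA differences of the genes with 1 probe set. HSP90B1 read -0.20, -0.12, 0.18 and 0.35 in KK, from -0.61 over -0.11 to 0.49 in KA and from -0.36 over 0.09 to 0.37 in AA. KK minus AA was -0.04 (95% interval -0.37 to 0.30) and KA minus AA -0.10 (-0.34 to 0.14), and the genotypes overlapped fully. ATF4 read 0.20, -0.38, 0.14 and 0.30 in KK, from -0.62 over 0.17 to 0.67 in KA and from -0.58 over 0.01 to 1.02 in AA, where AA 10 was the highest array. KK minus AA was -0.02 (-0.44 to 0.41) and KA minus AA 0.03 (-0.27 to 0.33). These intervals still allow differences between -0.44 and 0.41 on the log2 scale. Leaving out single arrays turned the sign of KK minus AA for both genes and of KA minus AA for ATF4.

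DDIT3, a pro-apoptotic target of ATF4, was the gene that lay lowest in KA relative to AA. The KK arrays read -0.38, -0.17, -0.28 and 0.52, the KA arrays ran from -0.60 over -0.28 to 0.43, and the AA arrays from -0.53 over 0.20 to 1.04. Only 1 of 13 KA arrays lay above the AA mean, which included AA 2 at 1.04 and AA 9 at 0.70. KA minus AA was -0.31 (SE 0.15, unadjusted p = 0.0539, adjusted p = 0.235), and -0.14 (SE 0.13) without those 2 arrays, so the value moved by more than 1.5 times.

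None of the 12 probe sets passed an adjusted p of 0.05 in limma in any genotype comparison, and neither did any other of the 24016 probe sets, a background of 0%. Without AA 1 alone 525 of them passed between KA and AA, among them HSPA5 A (0.48, adjusted p = 0.0498). At an unadjusted p under 0.05, 3 of 12 were higher in KA than in AA (HSPA5 A, PDIA4 B and PDIA4 C), where 10.8% of all probe sets were, and 0 of 12 were lower, where 11.1% were. Between KK and AA 0 of 12 passed that limit in either direction, against 2% higher and 1.51% lower of all probe sets. Between KK and KA 0 of 12 passed it, against 1.44% higher and 1.39% lower, with differences from -0.16 for HSPA5 A to 0.15 for DNAJB9. Per additional K allele 4 of 12 passed it with positive slopes, where 4.68% of all probe sets did, and 0 of 12 with negative slopes, where 4.48% did. They were PDIA4 B (0.31), DNAJB9 (0.25), HSPA5 A (0.22) and PDIA4 C (0.21), all at an adjusted p of 0.526. Without AA 2 and AA 9 0 of 12 slopes passed, against 1.71% positive and 1.55% negative of all. Without those arrays 2 of 12 were higher in KA than in AA, against 5.2% of all, and 0 of 12 were lower, against 4.3%. The comparisons share their AA arrays, so these counts are not independent of each other.

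Over the 12 probe sets the median difference was 0.19 for KK minus AA, against 0.01 over all probe sets, with 9 of 12 positive where 52.2% of all were. It was 0.07 for KA minus AA, against 0.02 over all, with 10 of 12 positive where 54.5% of all were. For KK minus KA it was 0.05, against a median over all of 0.00, with 7 of 12 positive where 49.5% of all were. Without AA 2 and AA 9 the medians were 0.10, 0.05 and 0.05. The numbers positive were then 9, 7 and 7 of 12, against 51.8%, 53.0% and 49.5% of all. Probe sets of 1 gene share its transcripts and are not independent in these counts.

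**Figure D2:**
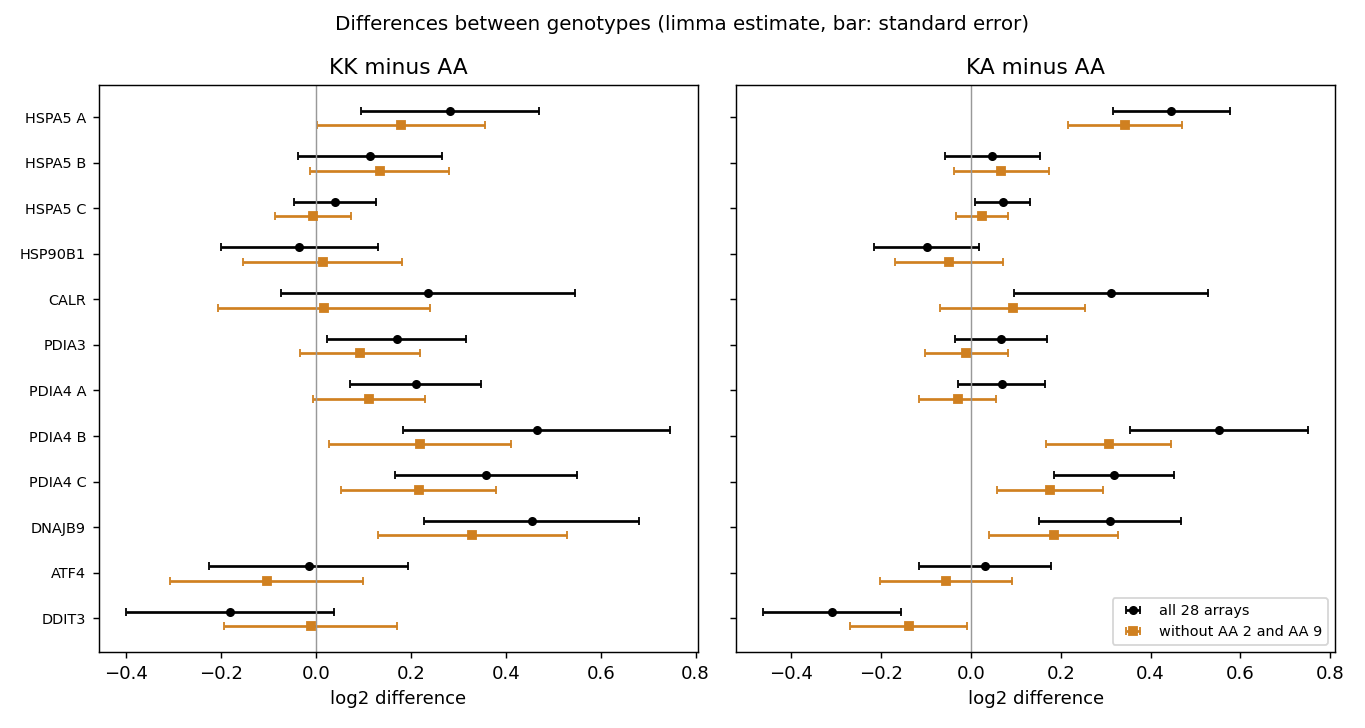
Log2 difference KK minus AA (left) and KA minus AA (right) for each probe set, with the limma estimate as a point and its standard error as a bar, for all 28 arrays (black) and without AA 2 and AA 9 (orange). HSPA5 A and PDIA4 B lie farthest right for KA minus AA, at 0.45 and 0.55, and DDIT3 farthest left at -0.31; without AA 2 and AA 9 these become 0.34, 0.31 and -0.14.

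The probe sets of HSPA5 and PDIA4 allowed a check of how well 1 gene was read. Over the 26 arrays without AA 2 and AA 9, HSPA5 A followed the dim HSPA5 C (Pearson r = 0.70, Spearman rho = 0.76, permutation p = 3e-05, adjusted p = 0.00018 over 6 pairs). It also followed the bright HSPA5 B (r = 0.59, rho = 0.69, permutation p = 0.00131, adjusted p = 0.00393). That relation was looser because AA 11 lay off the line, with -0.71 on HSPA5 A and 0.37 on HSPA5 B, and r was 0.86 without AA 11 and KA 1, the arrays farthest from the median. Within array numbers 29 to 42 it was 0.88 and within 43 to 56, which hold AA 11, it was 0.35.

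PDIA4 was read less evenly. PDIA4 A, which stands for the gene in the correlations below, had r = -0.03 with PDIA4 B (permutation p = 0.872) and r = -0.32 with PDIA4 C (permutation p = 0.11). PDIA4 B and PDIA4 C had r = 0.44 (permutation p = 0.0247, adjusted p = 0.0495) but rho = 0.29 (adjusted p = 0.216). What is said of PDIA4 therefore depends on the probe set.

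The arrays on which the probe sets disagreed were those with a high GAPDH 3′ minus 5′ difference. HSPA5 A minus HSPA5 B was -1.15 on AA 2 and -1.08 on AA 11, against -0.38 to 0.37 on the other 26. PDIA4 B minus PDIA4 A was -1.43 on AA 2 and -1.29 on AA 11, against -0.54 to 0.64 on the other 26. Over the 26 arrays without AA 2 and AA 9 the HSPA5 difference had r = -0.74 with the GAPDH difference (permutation p = 0.00255, adjusted p = 0.0051 over 2 relations) but rho = -0.35 (p = 0.0838), and r = -0.47 without AA 11 and KA 2. For PDIA4 r was -0.50 (permutation p = 0.0198, rho = -0.11) and -0.03 without those arrays, so both relations rest on AA 11. With the mean of the actin and GAPDH 3′ minus 5′ differences as a covariate, KA minus AA for HSPA5 A was 0.38 (adjusted p = 0.221). The largest shifts in KA minus AA were those of CALR, from 0.31 to 0.13, and PDIA4 B, from 0.55 to 0.44. DNAJB9 moved the other way, from 0.31 to 0.36.

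**Figure D3:**
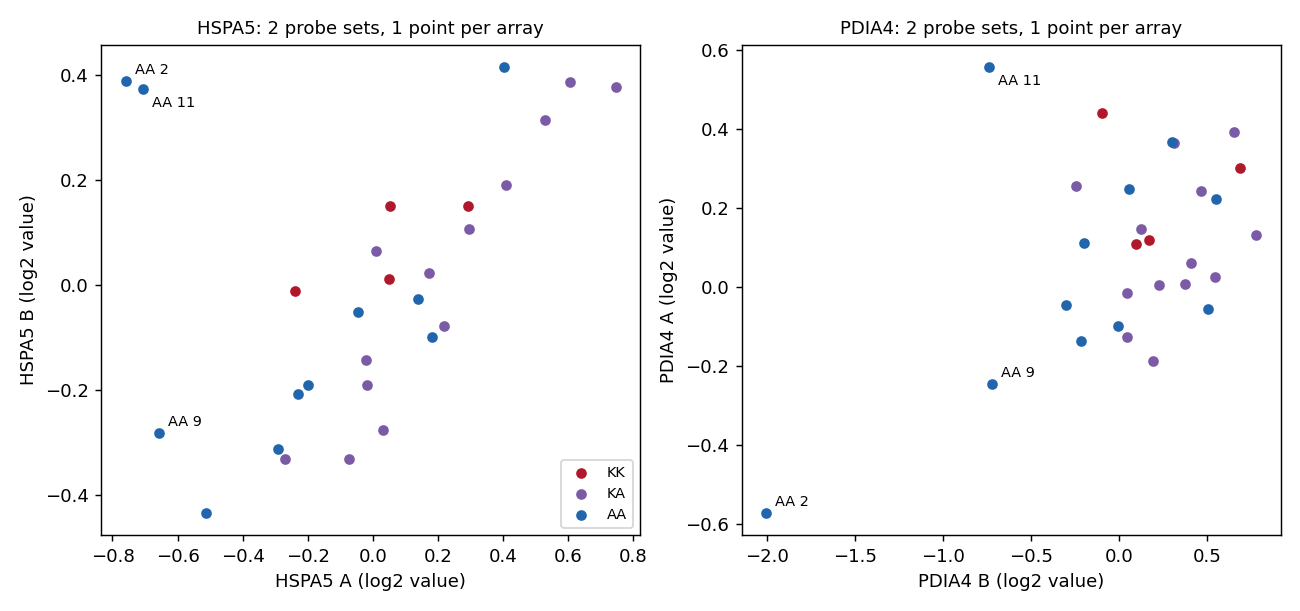
Log2 values of HSPA5 A and HSPA5 B (left) and of PDIA4 B and PDIA4 A (right), 1 point per array, coloured by genotype, with AA 2, AA 9 and AA 11 named. In HSPA5 the arrays follow a line from which AA 2 (-0.76 and 0.39) and AA 11 (-0.71 and 0.37) stand apart, whereas in PDIA4 the points form no line.

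AA 2 and AA 9, which stand apart over the whole array, were read against the other 26 as a description without a test. Both lay below all 26 others for 2 of 12 probe sets, where 17.7% of all probe sets did so, and both lay above for 1 of 12, where 18.4% did so. The first are PDIA4 A, at -0.57 on AA 2 and -0.25 on AA 9 against -0.19 to 0.56, and PDIA4 C, at -0.75 and -0.93 against -0.72 to 0.63. The gene above was DDIT3, at 1.04 on AA 2 and 0.70 on AA 9 against -0.60 to 0.52.

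CALR, PDIA3 and DNAJB9 differed between AA 2 and AA 9. CALR was -2.0 on AA 2 and -0.10 on AA 9, against -0.64 to 0.90 on the other 26, and PDIA3 was -0.82 on AA 2 and -0.08 on AA 9, against -0.39 to 0.43. Both genes were thus low on AA 2 and within range on AA 9. DNAJB9 showed the opposite, at -0.43 on AA 2 and -1.42 on AA 9, against -0.84 to 0.59. HSPA5 A was low on both, at -0.76 and -0.66, but AA 11 at -0.71 lay between them. HSP90B1, at 0.35 on AA 2 and 0.27 on AA 9, and ATF4, at -0.58 and -0.06, stayed within the range of the other 26. Singly, AA 2 lay below the others for 6 of 12 probe sets and above for 1, against 30.8% and 26.5% of all. AA 9 lay below for 4 and above for 1, against 26.4% and 26.6%. These calls depend on the wide spread of both arrays. After quantile normalization CALR on AA 2 was -0.75, against a lowest of -0.71 on the other 26. PDIA3 on AA 2 was then -0.31 and DNAJB9 on AA 9 was -0.64, within ranges that began at -0.44 and -1.26.

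Genes that mark other cell types and milk secretion also differed on these arrays, and their part in the values above was not tested. Over all 9155 genes 16.4% lay below the other 26 on both arrays and 22.8% above. The mean of 11 milk fat globule and lipid droplet genes was -2.66 on AA 2 and -3.21 on AA 9, against -0.34 to 0.35 on the other 26. Of these genes 9 of 11 lay below all others on both, among them CIDEA at -4.82 and -6.79. The mean of 11 milk protein and lactose synthesis genes was -0.72 on AA 2 and -1.51 on AA 9, against -0.23 to 0.16, with 9 of 11 below. Fibroblast and matrix genes averaged 1.22 and 1.69, against -0.53 to 0.41, with 9 of 11 above, and luminal keratins and junction genes 0.80 and 0.84, against -0.35 to 0.43, with 6 of 11 above and 2 of 11 below. Plasma and B cell genes, whose cells also carry much ER, averaged 0.89 and 0.32, inside the range of -0.48 to 1.05. Macrophage and myeloid genes averaged 0.83 and 1.15, against -0.39 to 1.07, T and natural killer cell genes 0.65 and 0.94, against -0.34 to 0.69, and myoepithelial genes 0.57 and 1.04, against -0.55 to 0.65, so these lay above the other 26 on AA 9 and within their range on AA 2. Endothelial genes averaged -0.36 on AA 2 and 0.41 on AA 9, against -0.27 to 0.59. Adipocyte genes averaged -0.23 and -0.01, against -0.13 to 0.29, so both lists lay below on AA 2 and within range on AA 9. Both arrays are AA, so what sets them apart and the AA genotype cannot be told apart within the genotype means.

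**Figure D4:**
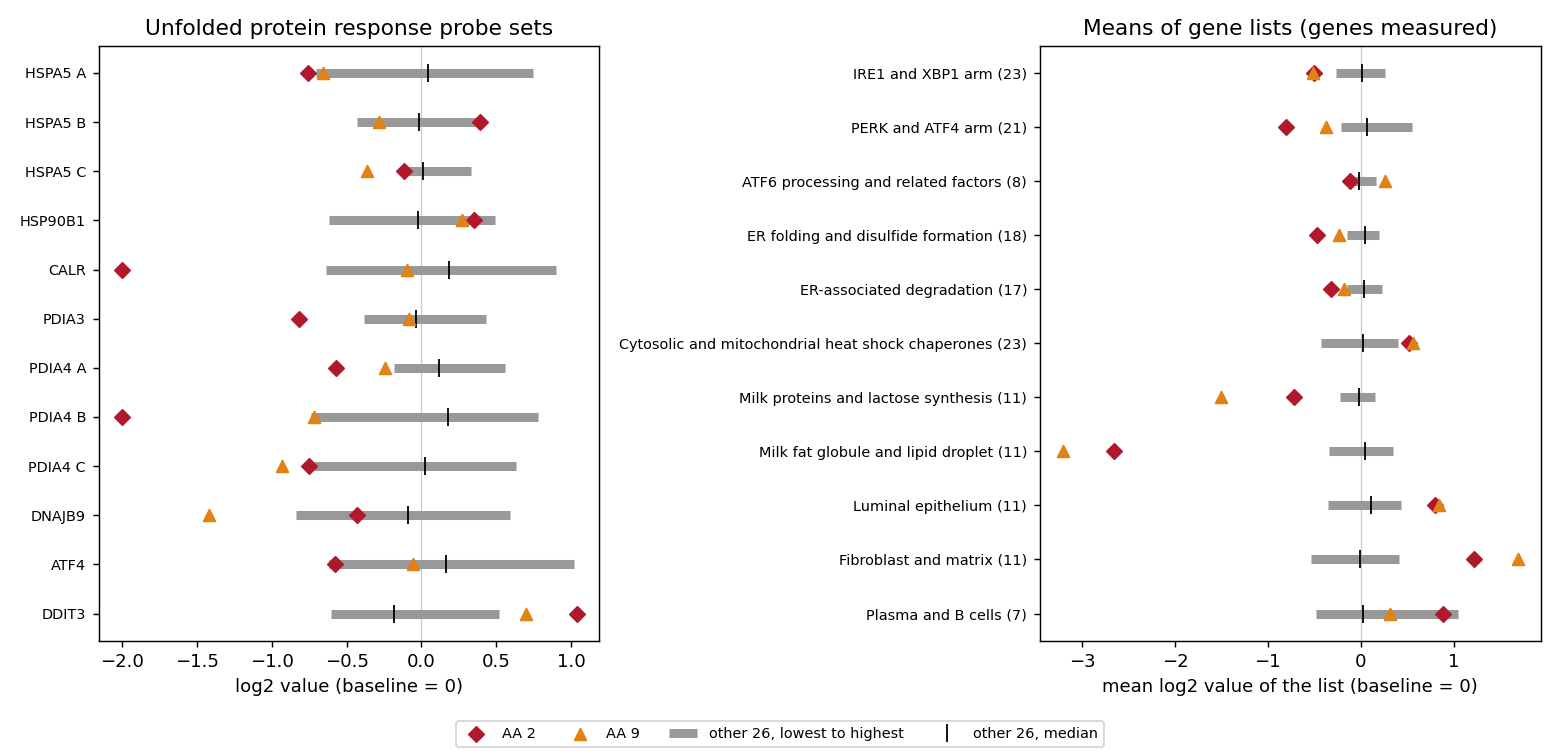
Log2 values of the 12 probe sets (left) and means of gene lists with the number of genes measured (right) on AA 2 (diamonds) and AA 9 (triangles), beside the lowest to highest (bar) and median (tick) of the other 26 arrays. CALR, PDIA3 and PDIA4 B are low on AA 2, DNAJB9 is low on AA 9 and DDIT3 is above the others on both, while the heat shock list lies above and the milk lists lie below.

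Wider lists of the same pathway were described on 1 probe set per gene. The IRE1 and XBP1 arm held 23 genes, mainly of ER import, signal peptide removal, ER chaperones with their cofactors, and retrieval to the ER. Their mean was -0.50 on AA 2 and -0.51 on AA 9, against -0.27 to 0.26 on the other 26. Of the 23 genes 10 lay below all others on both, where 16.4% of the 9155 genes did. SERP1, which stabilises membrane proteins in the ER, was -1.69 on AA 2 and -1.67 on AA 9, against -0.45 to 0.38. SDF2L1, an HSPA5 cofactor, was -1.14 and -1.55, against -0.48 to 0.44. SSR3, a subunit of the translocon-associated complex, was -1.04 and -1.02, against -0.36 to 0.32, and SRPRA, the receptor of the signal recognition particle, -1.70 and -0.97, against -0.25 to 1.08.

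In the PERK and ATF4 arm the mean of 21 genes was -0.80 on AA 2 and -0.37 on AA 9, against -0.21 to 0.55. Of the 21 genes 6 lay below on both and 0 above, where 16.4% and 22.8% of the 9155 genes did. SLC7A5, a transporter of large neutral amino acids, was -2.46 on AA 2 and -1.91 on AA 9, against -1.07 to 1.65, PSAT1 of serine synthesis was -1.93 and -2.50, against -1.19 to 0.89, PSPH of the same route -1.41 and -1.62, against -1.30 to 1.48, and MTHFD2 of mitochondrial folate metabolism -1.78 and -1.24, against -1.02 to 1.38. SLC3A2, the heavy chain that pairs with SLC7A5, was -1.14 on AA 2 and 0.71 on AA 9, against -0.37 to 0.90. ATF4 itself, at -0.58 and -0.06, and its target DDIT3, above all others on both, did not lie below the others on both.

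The remaining ER lists were mixed on AA 2 and AA 9, where 16.4% of the 9155 genes lay below on both and 22.8% above. Of 18 genes of folding and disulfide formation, 7 lay below on both and 2 above, with P4HB (protein disulfide isomerase) at -1.72 on AA 2 and -0.62 on AA 9, against -0.09 to 0.40, and DNAJC10, an ER disulfide reductase, at 1.29 and 1.08, against -0.46 to 0.39. Of 17 genes of ER-associated degradation, 4 lay below and 1 above, with SYVN1 (HRD1), the ubiquitin ligase, at -0.88 and -0.76, against -0.46 to 0.93, and HERPUD1, its partner, at 1.09 and 0.61, against -0.54 to 0.39. Of 8 genes of ATF6 processing and related factors, 0 lay below and 2 above, NFYB at 1.35 and 1.12 and the site-1 protease MBTPS1 at 1.03 and 0.76.

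Chaperones of the cytosol and mitochondria stood on the other side. Their mean over 23 genes was 0.52 on AA 2 and 0.56 on AA 9, against -0.42 to 0.40 on the other 26, with 9 of 23 above all others on both, where 22.8% of the 9155 genes were, and 1 of 23 below. The chaperonin subunits CCT4, at 1.19 and 1.02 against -0.57 to 0.43, and CCT2, at 1.38 and 0.95 against -0.74 to 0.46, were among them. BAG3, a co-chaperone of Hsp70, was 1.12 and 1.25, against -0.54 to 1.20. HSPA1A was 1.20 and 1.21, inside the range of -0.82 to 1.82, and its near-identical copies may share its signal. The exception was TRAP1, the mitochondrial Hsp90, at -1.08 and -0.82, against -0.26 to 0.30.

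Between genotypes no gene of these lists passed an adjusted p of 0.05 in limma. At an unadjusted p under 0.05 the slope per K allele was positive for 2 and negative for 0 of 23 genes of the IRE1 and XBP1 arm, 0 and 0 of 21 of the PERK and ATF4 arm, 0 and 1 of 8 of the ATF6 list, 2 and 0 of 18 of folding, 1 and 0 of 17 of degradation and 1 and 1 of 23 cytosolic and mitochondrial chaperones. Over all 9155 genes 4.33% were positive and 5.34% negative. The genes with the smallest p were SPCS3, a signal peptidase subunit (0.22, p = 0.0331), and SERP1 (0.25, p = 0.0475) of the IRE1 and XBP1 arm, PDIA5 (0.14, p = 0.0341) and NUCB2 (0.20, p = 0.0499) of folding, UBE2G2 (0.15, p = 0.0317) of degradation, TRAP1 (0.18, p = 0.0207), HSPE1 (-0.16, p = 0.0477) and MBTPS1 (-0.16, p = 0.0409), each at an adjusted p of 0.526. The median slopes were 0.06, 0.05, 0.05, 0.08, 0.06 and -0.08 in the order of the lists, and 0.04, -0.02, 0.03, 0.03, 0.03 and 0.00 without AA 2 and AA 9.

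Between KA and AA the cytosolic and mitochondrial chaperones had the most negative differences of these 6 lists at the same limit, with 4 of 23 lower and 1 higher in KA, where 11.7% of the 9155 genes were lower and 9.96% higher. Their median difference was -0.25, but -0.07 when all probe sets of a gene were averaged. Without AA 2 and AA 9 it was -0.08, and 0 of 23 passed the limit in either direction. In the IRE1 and XBP1 arm 3 of 23 were higher and 0 lower in KA, in the PERK and ATF4 arm 2 of 21 and 0, in folding 3 of 18 and 1, in degradation 2 of 17 and 0, and in the ATF6 list 1 of 8 and 1. The medians of these 5 lists lay between 0.06 and 0.10, and between 0.01 and 0.09 without AA 2 and AA 9.

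Without AA 2 and AA 9 the spread among cows of the same genotype was wide for most of the 12 probe sets. The residual standard deviation was 0.40 for CALR, higher than that of 93.7% of bright probe sets, and 0.36 for ATF4, higher than 90.3% of them. DNAJB9 stood at 0.35, PDIA4 B at 0.34, DDIT3 at 0.32, HSPA5 A at 0.31 and HSP90B1 at 0.29, and PDIA3 was near the middle of the bright class at 0.21, where the class median was 0.20. PDIA4 A was at 0.20, higher than 35.2% of intermediate probe sets. The dim HSPA5 C varied little even for its class, at 0.12, more than 9.32% of dim probe sets.

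This spread was partly shared between genes. How often pairs of other genes share theirs over these arrays was not computed, so the counts below have no background beside them. Of 28 pairs of the 8 genes, each read by the 1 probe set that stands for it (HSPA5 A and PDIA4 A for the genes with several), 7 had a permutation p under 0.05 after Benjamini-Hochberg adjustment over the 28 pairs by both Pearson and Spearman, and all 7 were positive. PDIA3 and CALR had r = 0.80 and rho = 0.82 (permutation p = 1e-05, the smallest that 100000 permutations give, adjusted p = 0.00028), with 0.75 within array numbers 29 to 42, 0.82 within 43 to 56 and 0.79 without KA 9 and KA 2. HSP90B1 joined them, with r = 0.66 and rho = 0.68 with PDIA3 (permutation p = 0.00022, adjusted p = 0.00308) and r = 0.63 and rho = 0.67 with CALR (permutation p = 0.00061, adjusted p = 0.00427), and without KA 7 and KA 10 r was 0.63 and 0.50. With PDIA4 A, HSP90B1 had r = 0.65 and rho = 0.63 (permutation p = 0.00035, adjusted p = 0.00327), and 0.57 without KA 7 and KA 10.

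HSPA5 A shared its spread with CALR and DNAJB9. With CALR it had r = 0.58 and rho = 0.54 (permutation p = 0.002, adjusted p = 0.0112), and 0.42 without AA 11 and KA 1. With its J-domain partner DNAJB9 it had r = 0.54 and rho = 0.55 (permutation p = 0.00452, adjusted p = 0.0211), and 0.59 without AA 11 and KA 1, but the relation was 0.78 within array numbers 29 to 42 and 0.26 within 43 to 56. HSPA5 and HSP90B1, the Hsp70 and Hsp90 of the ER, had r = 0.23 and rho = 0.27 (permutation p = 0.25, adjusted p = 0.413). ATF4 followed CALR (r = 0.49, rho = 0.55, permutation p = 0.0113, adjusted p = 0.0452), and 0.40 without KA 7 and KA 1, whereas ATF4 and its target DDIT3 had r = 0.35 and rho = 0.28 (permutation p = 0.0779, adjusted p = 0.185). DNAJB9 was the gene with negative values, down to -0.24 with HSP90B1, none of which passed.

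**Figure D5:**
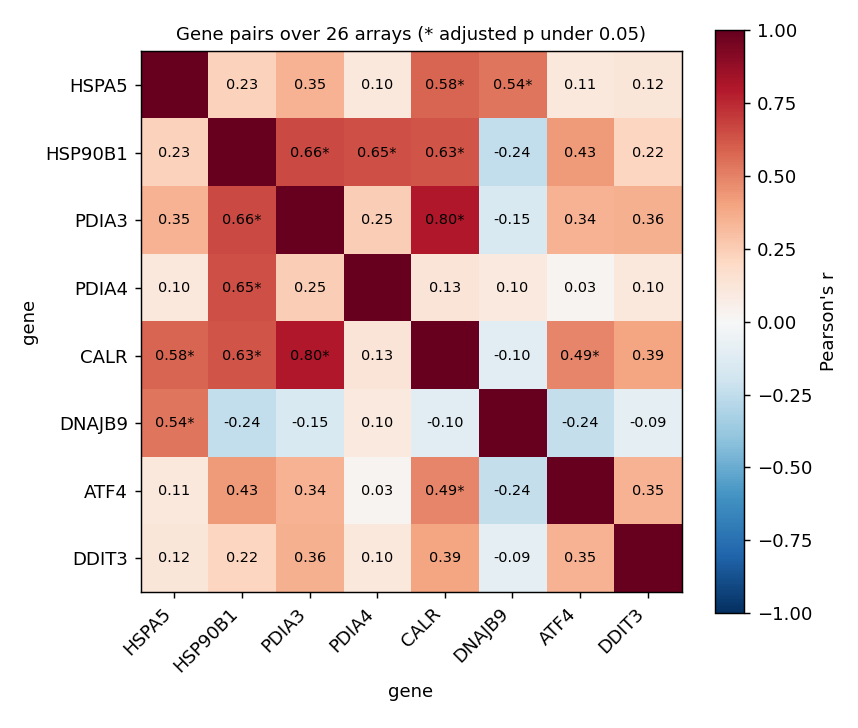
Pearson's r between each pair of the 8 genes over the 26 arrays without AA 2 and AA 9 (colour scale from -1 to 1), with an asterisk where the adjusted permutation p is under 0.05. PDIA3, CALR and HSP90B1 form a block with r between 0.63 and 0.80, HSPA5 is tied to CALR and DNAJB9, and DDIT3 has no asterisk.

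Set against the means of the wider lists, with members of the group left out of those means, 7 of 40 relations passed. The share of other genes that would pass was not computed. ATF4 followed the PERK and ATF4 arm most closely (r = 0.71, rho = 0.66, permutation p = 3e-05, adjusted p = 0.0012), with 0.67 without AA 10 and KA 7, and it also followed the degradation list (r = 0.55, rho = 0.59, adjusted permutation p = 0.0307). HSP90B1 followed folding (r = 0.64, rho = 0.60, adjusted permutation p = 0.0118), the IRE1 and XBP1 arm (r = 0.55) and degradation (r = 0.54), but within array numbers 29 to 42 these were 0.44, 0.24 and 0.30. CALR followed folding (r = 0.54) and PDIA4 the IRE1 and XBP1 arm (r = 0.52), where rho did not pass (0.47, adjusted p = 0.0571) and r was 0.22 within array numbers 29 to 42. HSPA5 and the IRE1 and XBP1 arm had r = 0.46 (adjusted permutation p = 0.0758, rho = 0.58), and 0.77 without AA 11 and KA 1.

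Against chaperones outside the ER and the lists that mark milk secretion and cell types, 8 of 88 relations passed, and 61 had r above 0. Here too the share for other genes was not computed. HSP90B1 followed the cytosolic and mitochondrial chaperones (r = 0.83, rho = 0.79, permutation p = 1e-05, adjusted p = 0.00088), and so did PDIA4 (r = 0.62) and PDIA3 (r = 0.56). HSP90B1 also moved with luminal epithelial genes (r = 0.73, rho = 0.70), macrophage and myeloid genes (r = 0.61) and plasma and B cell genes (r = 0.61), whose part in its values was not tested. ATF4 moved with the milk protein and lactose synthesis genes (r = 0.60, rho = 0.63, permutation p = 0.00152, adjusted p = 0.0223), with 0.68 within array numbers 29 to 42 and 0.63 within 43 to 56. DNAJB9 ran against the luminal genes (r = -0.54, adjusted permutation p = 0.0452), where rho did not pass (adjusted p = 0.078).

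Among 9147 other genes, those whose values were most like HSPA5 A over the 26 arrays were ALG11 (r = 0.83), RNFT1 (0.81), DDX21 (0.78), UBE2N (0.77) and UFM1 (0.76). For HSP90B1 they were PPIB (0.86), PGK1 (0.82), LHFPL2 (0.81), SNHG12 (0.81) and CCT3 (0.81). ATF4 had no gene as close, with KIAA1191 (0.68), SLC25A16 (0.67), ETHE1 (0.67), HAGHL (0.67) and HUWE1 (0.66) on top. The closest to DDIT3 were APOA1 (0.62), TBCCD1 (0.58), TRAF5 (0.58), C2 (0.56) and NOS2 (0.55). They are the highest of many and are given as a description.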

How the data were processed

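The deposited table holds log2 values per probe set, whose rounding steps show that a baseline had been subtracted before deposit. Per the labels' protocols the arrays were processed with Bioconductor 2.7 in R 2.13, and the submitters' processing notes name RMA and GCRMA. Which of these produced the table, and what the baseline was, are not given in the sources used here. Of 24128 probe sets, 112 controls were left out. The platform annotation gave 1 symbol to 13292 of the rest, several to 86 and none to 10638, and 13263 symbols matched RefSeq.

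Level classes came from the size of the rounding steps, which follow the size of the unsubtracted value (tolerance 0.2 steps). Probe sets whose steps were finer, or fitted no size over all arrays, were put in the dim class. Where a gene had several probe sets, one of its brightest class stands for it (letter A). Genotypes were compared by lmFit and eBayes of limma 3.58.1 (R 4.3.3, all 28 arrays, Benjamini-Hochberg over 24016 probe sets, threshold 0.05), as contrasts of genotype means and as a slope per K allele. Correlations used 100000 permutations, two-sided, with scipy 1.17.1. The genes described beside the group were, per list, up to 4 with the smallest slope p and up to 4 with the largest mean of AA 2 and AA 9. The group and the lists were chosen with earlier results of these data known.

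On simulated data 200 of 24016 probe sets were changed on the log2 scale, for the contrasts by 0.5 in 1 genotype. The same fit recovered 31% for KK minus AA and 66.5% for KA minus AA. For the slope the change was 0.5 per K allele, which is larger between KK and AA, and 84% were recovered. The slope and the contrasts were thus not set against the same change. The labels do not say more of the cows' relation, the number of arrays limits the precision, and p-values measure the spread between these cows. Alternatives were quantile normalization, median centring, array weights, a block for array numbers, a robust prior, leaving out arrays, and a 3′ minus 5′ covariate chosen after seeing the data.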

Additional observations from a re-analysis of the deposited data

How the results depend on the processing

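No probe set passed in KA minus AA with the values as deposited, while 47 of 24016 passed after quantile normalization, 104 with array weights, 12 at a threshold of 0.10 and 0 to 525 when each array was left out in turn (525 without AA 1, 5 without KK 3 or without KA 5, 1 without AA 7 or without KA 9). In KK minus KA 3 passed with array weights. KK minus AA and the slope gave 0 in each of these runs. Of 1788 values of single probe sets of the group under all alternatives, 1787 stayed on their side of the threshold and 1 passed it, KA minus AA of HSPA5 A without AA 1, at 0.48 (adjusted p = 0.0498); leaving out each array in turn, its difference ranged between 0.39 and 0.51. Signs differed from the main value in 61, none of them called. With array numbers as a block KA minus AA of PDIA4 C was 0.52 (adjusted p = 0.16). AA 2 and AA 9 both lay below the other 26 for 0 probe sets and above for 0 after quantile normalization, and below for 1 after median centring; quantile normalization gives every array the same spread. The causes of the other shifts were not tested. The genotype comparisons were unpaired, since each cow had 1 genotype and gave 1 biopsy on 1 array. With 4 KK arrays, intervals for KK are wide, and signal over background was not analysed here.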

Other observations

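Fibroblast and matrix genes had a negative slope per K allele at an unadjusted p under 0.05 in 8 of 11, among them OGN (-0.52, p = 0.00111) and COL1A2 (-0.41, p = 0.0135), against 5.34% of all genes, and in 1 of 11 without AA 2 and AA 9. None passed an adjusted p of 0.05.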
